A study of Mus musculus with 27 samples.

Results

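The genes for the proteins of the cytosolic ribosome were chosen by their symbols, taking every gene named Rpl or Rps with a number, Rplp0 to Rplp2, or Rpsa. The deposited table held 84 such genes among 36333, of which 52 encode proteins of the large subunit and 32 proteins of the small subunit. Mitochondrial ribosomal proteins and pseudogenes were left out by this choice. Each gene was described in 27 RNA-seq libraries from liver, omental adipose tissue and skeletal muscle of MlxKO mice at 5 months (n = 4 in each tissue) and 20 months (n = 5 in each tissue).

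All mice compared here carried the same deletion, so the comparisons are between ages and tissues and not between genotypes. By the study's own assay of remaining Mlx RNA the loss was less complete in muscle than in liver and adipose tissue, so the tissues differ in this respect too. The strain combined Mlx Flox/Flox with the Gt(ROSA)26Sortm1(cre/ERT2)Tyj allele on a B6.129 background, in which a tamoxifen-activated Cre recombinase is expressed from the broadly active ROSA26 locus, so that deletion was body-wide and not limited to a cell type. Both age groups had received 5 daily intraperitoneal doses of tamoxifen, 75 mg/Kg each and dissolved in corn oil, around weaning and once they weighed at least 15 g. They were male according to the study's methods. Libraries are named as in the labels, where the last digits number the mouse. At 5 months the same 4 mice gave liver (X5L4299, X5L5001, X5L5238, X5L5239), adipose tissue (X5F with the same digits) and muscle (X5S with the same digits). At 20 months the numbers differ between tissues (liver X18L16 to X18L19 and X18L74, adipose tissue X18F36 to X18F40, muscle X18S56 to X18S60), and whether any of these libraries came from the same mouse is not given. The labels give their age as 20 months. The 18 in their names may stand for an age in months. The study's supplement lists mouse numbers that end in the same digits, for the same tissues, at 18 months. Which age holds was not resolved here. Values for single libraries are given in this order. Wild-type mice were not analysed here. Values are CPM divided by a factor for each library, and the libraries held 14384695 to 25673919 reads on genes.

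Mlx is the dimerization partner through which MondoA, ChREBP and some Mxd repressors bind DNA, and it belongs to a network related to that of Myc, which is known for driving ribosome production. A ribosome holds most of its proteins in equal number, and these genes are known to be expressed together and at high levels in all tissues. Their messenger RNAs begin with a C followed by a run of pyrimidines, called a 5′ terminal oligopyrimidine (TOP) tract, through which mTORC1 and Larp1 regulate their translation and stability. A few have paralogs of narrower expression. Rpl3l replaces Rpl3 in part of the ribosomes of skeletal muscle and heart, Rpl10l and Rpl39l are best known from the testis, and Rps27l is a p53-responsive copy of Rps27.

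RefSeq (GRCm38.p6) transcription starts were matched for 64 of the 84 genes, with some genes having several starts. A tract was searched on the strand that reads as the RNA. It was defined as C followed by at least 4 further C or T, beginning within 10 bases of the start. Such a tract was held by 39 of 76 start windows of ribosomal protein genes (51.3%) and by 27.9% of 32851 start windows of all genes. The E-box CACGTG, the sequence bound by Mlx partners and by Myc, was found in the 300 bases around the start in 8 of the 76 windows (10.5%), against 7.15% of all windows. The start windows of the paralogs that differed most between tissues, of Rps27 as a partner, and of Rps28 and Rpl38, which departed from the rest of the family, follow from 10 bases before the annotated start to 20 bases from it, with the tract in capitals. Rpl3l and Rps27l have other matched starts, and of these the one furthest upstream is given. The annotated genes of Rps27l and Rpl38 begin further upstream than the windows printed, at chr9:66944624 and chr11:114667818. The windows of Rpl22l1, Rpl10l and Rpl39l, which hold a tract, are not printed, and Rps29 and Rpl3 had no matched start. The windows printed lie at chr17:24727816-24727845 (Rpl3l, plus strand), chr17:46782637-46782666 (Rpl7l1, minus strand), chr3:90213629-90213658 (Rps27, minus strand), chr9:66946076-66946105 (Rps27l, plus strand), chr17:33824543-33824572 (Rps28, minus strand) and chr11:114668570-114668599 (Rpl38, plus strand).
Rpl3l: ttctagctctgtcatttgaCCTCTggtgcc
Rpl7l1: gctgcgcaagcgcagtagctgaagcaccgg
Rps27: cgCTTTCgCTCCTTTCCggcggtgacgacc
Rps27l: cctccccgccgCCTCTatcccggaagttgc
Rps28: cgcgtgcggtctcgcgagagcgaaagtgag
Rpl38: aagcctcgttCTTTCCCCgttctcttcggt
Rps27 and Rpl38 hold long tracts, the runs counted for Rps27l and Rpl3l are of the shortest length that qualified, and Rpl7l1 and Rps28 hold none in these windows. The pyrimidines at the left end of the Rps27l window belong to a run that began more than 10 bases before the start, so it was not counted. A match describes the letters around an annotated start and does not show where transcription began in these tissues.

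Of the 84 genes, 81 reached a value of 1 in at least 4 of the 27 libraries. Rpl10l, Rpl32l and Rpl39l did not, and Rpl3l passed this filter in muscle alone among the fits of single tissues, so that 80 genes were tested in liver, 80 in adipose tissue and 81 in muscle. Many ribosomal protein genes have processed pseudogenes of nearly the same sequence. A median of 49.9% of the 50-base stretches of each gene's transcript also occurred in transcripts of other genes, and 42 of the 84 shared the larger part of them. How the submitters' software divided such reads is not given in the sources used here, and the levels of the genes that share sequence are uncertain to that extent. Rps27, for example, shared 98.65% of these stretches with Rps27rt, and Rps6, which was listed at values of only 6.15 to 22.4, shared 84.56%.

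Ribosomal protein genes took a larger share of the reads at 20 months than at 5 months in liver. The share of the summed values was 1.26%, 1.23%, 1.37% and 1.29% in the 4 young livers and 1.60%, 1.56%, 1.85%, 1.84% and 2.03% in the 5 old ones. The groups did not overlap, with means of 1.29% ± 0.0617 (SD, n = 4) and 1.77% ± 0.195 (SD, n = 5). In adipose tissue the shares were 2.09%, 2.16%, 2.23% and 3.04% at 5 months and 3.10%, 2.66%, 3.70%, 2.59% and 2.86% at 20 months, and in muscle 1.06%, 1.04%, 1.53% and 1.15% against 1.60%, 1.47%, 1.399%, 1.502% and 1.59%. There the groups overlapped through a single young library each, X5F5239 in adipose tissue and X5S5238 in muscle.

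**Figure D1:**
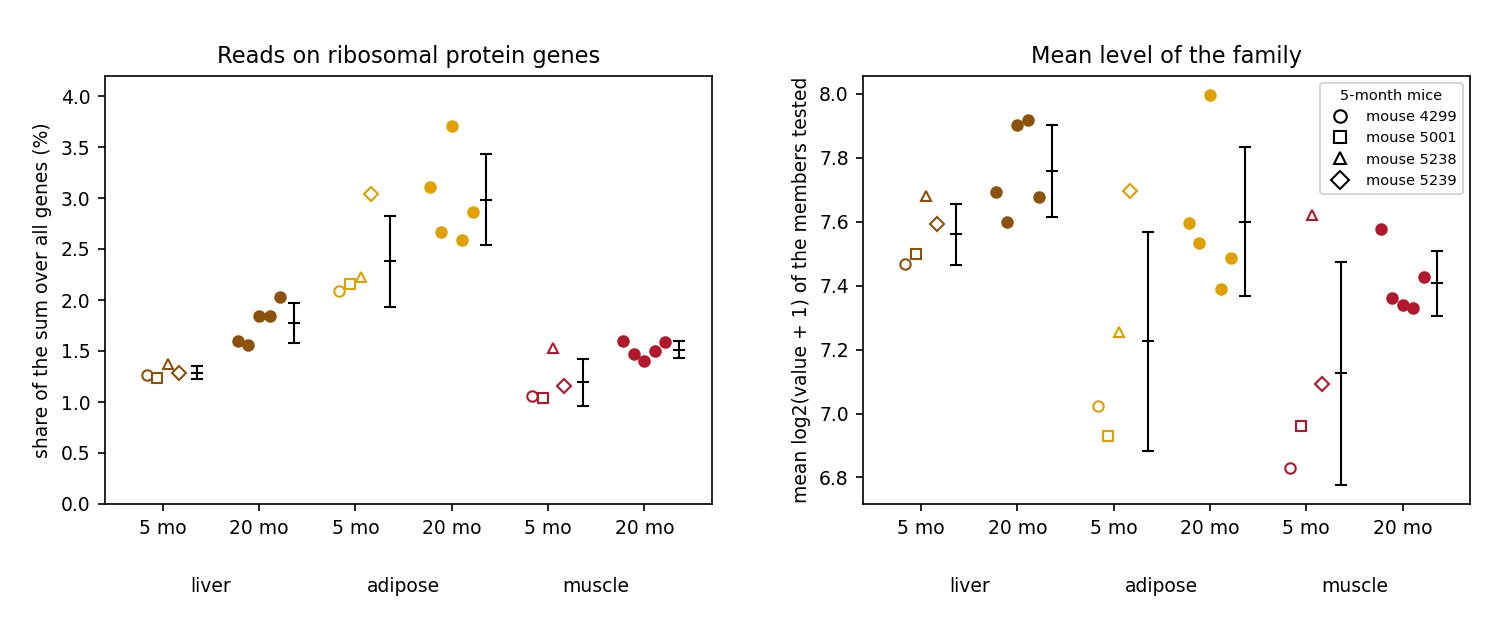
Share of the summed values on ribosomal protein genes (left, %) and the mean log2(value + 1) of the members tested (right) in each library, with the mean and SD of each group beside the points. Open symbols mark the 4 mice of 5 months and filled circles the mice of 20 months. The liver shares do not overlap between ages, and X5F5239 in adipose tissue (3.04%) and X5S5238 in muscle (1.53%) sit among the old samples.

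A share depends on what the most abundant genes take. The 20 most abundant genes of each tissue took 23.8% of the liver reads at 5 months and 20.4% at 20 months, and 27.99% and 26.8% of the muscle reads. Without them the mean shares on ribosomal protein genes were 1.69% and 2.23% in liver, 2.71% and 3.37% in adipose tissue and 1.66% and 2.06% in muscle, so the older group remained the higher in each. The split between subunits hardly varied, with 60.4 to 63.3% of the family's reads on large-subunit genes over all 27 libraries. Adding the pseudogenes named after members with the ending -ps left the shares of the summed values the same to every digit kept. The deposited table thus held no such rows or none with values large enough to count, so this addition could not test their part. Pseudogenes under other names were not counted, so the reads on pseudogenes were not measured by this.

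The members moved together from mouse to mouse. Of the 4 young muscle libraries, X5S5238 had the highest level for 79 of 81 members, whereas it was the highest for 31.3% of all genes tested. In adipose tissue X5F5239 was the highest for 76 of 80 members, against 31.4% of all genes. In liver X5L5238 was the highest for 53 of 80, against 21.3%. The mean log2 level of the family was 6.83, 6.96, 7.62 and 7.09 in young muscle (7.13 ± 0.347, SD, n = 4) and 7.58, 7.36, 7.34, 7.33 and 7.43 in old muscle (7.41 ± 0.102, SD, n = 5). In adipose tissue it was 7.02, 6.93, 7.25 and 7.70 at 5 months and 7.60, 7.53, 7.996, 7.39 and 7.49 at 20 months. The young libraries thus spread over a wider range than the old ones in these tissues, and the mouse that stood highest in muscle was not the one that stood highest in adipose tissue. X5S5238 also held the most Alb of the muscle libraries, at a value of 222 where the others lay between 0 and 43.1, and its part in these levels was not tested.

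**Figure D2:**
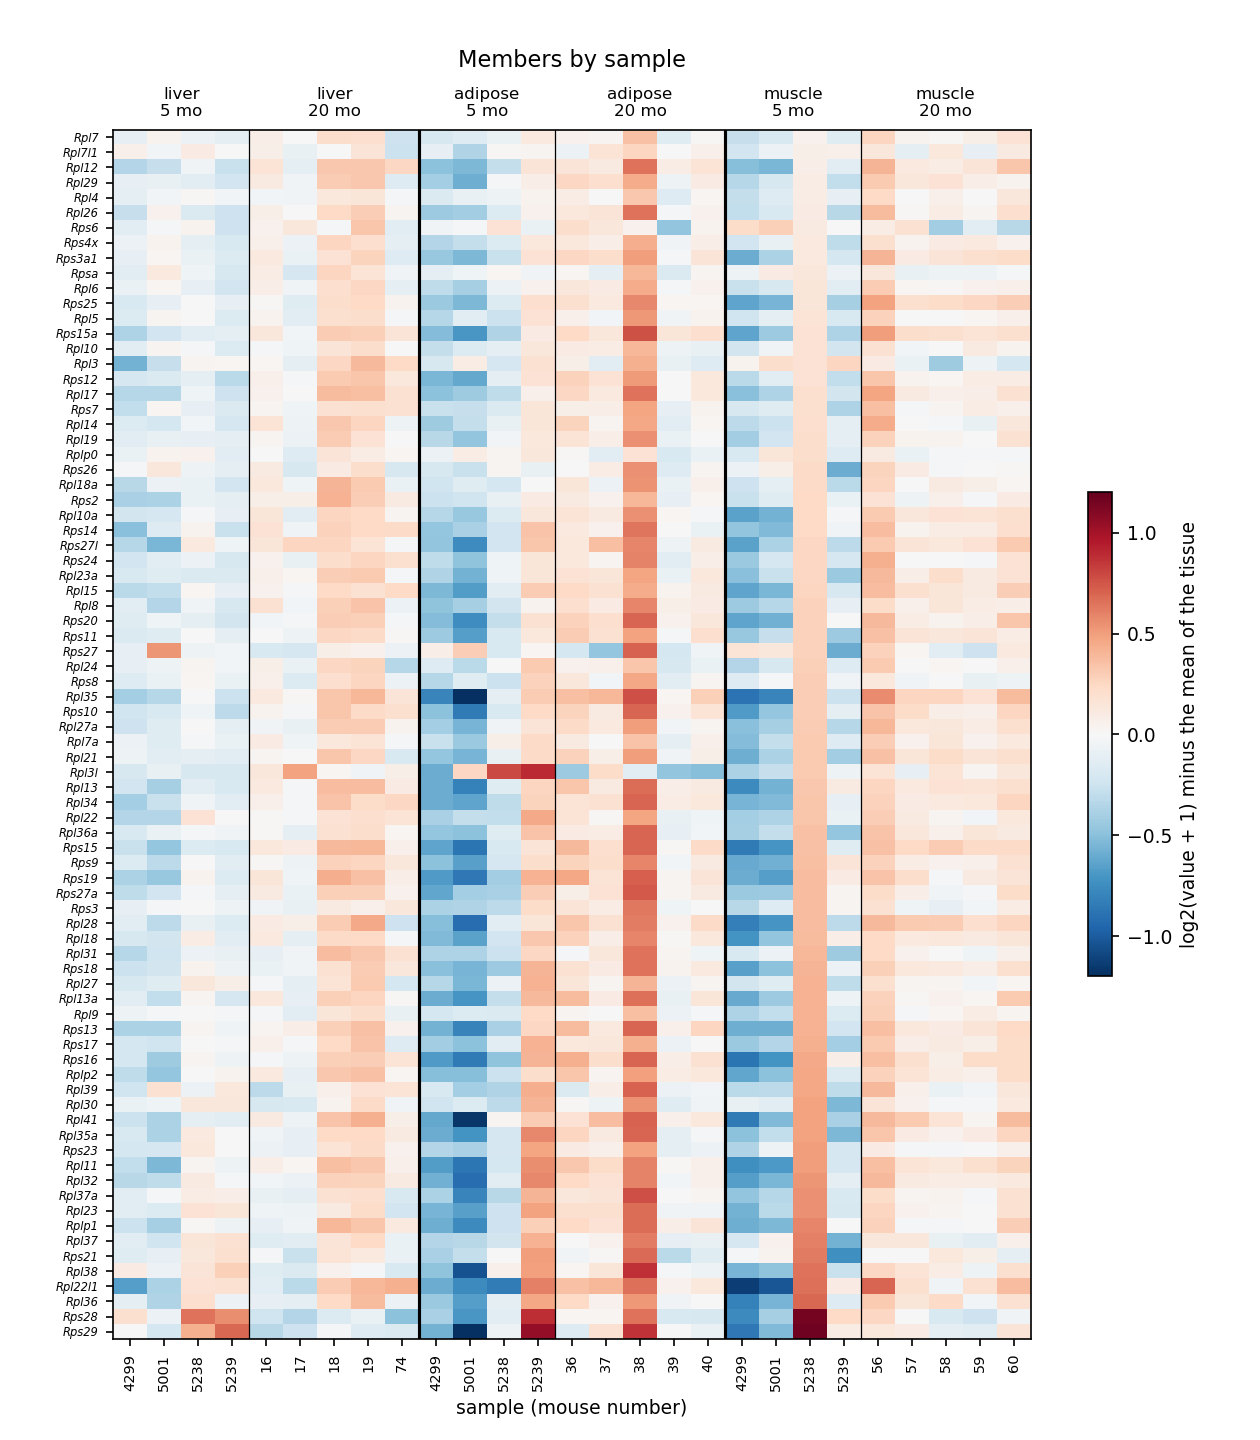
Each row is one of 80 of the 81 members tested and each column one library, coloured by log2(value + 1) minus the mean of that tissue. Most members change colour together within a column, with X5S5238, X5F5239 and X18F38 high throughout, and Rps28, Rps29, Rpl22l1, Rpl3 and Rpl3l depart from the common pattern.

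In liver, 13 members were higher at 20 months and 1 was lower, of 80 tested. Over all genes tested in liver 10% were higher and 9.79% lower, so the share of members called higher was somewhat above that of genes in general and the share called lower was below it. The shift itself was broad and small. The median member changed by 0.23 on the log2 scale against 0.00 for all genes, and 70 of the 80 members lay above 0. All 5 old livers exceeded all 4 young ones for 13 members, against 8.46% of all genes.

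The liver members that rose came from both subunits. Rps15, a protein of the head of the small subunit, had values of 178, 154, 191 and 189 at 5 months and 234, 229, 280, 282 and 222 at 20 months. No old liver reached down to a young one, and the change was 0.48 (SE 0.11, limma adjusted p = 0.0192). Rpl35, which sits near the exit of the peptide tunnel, rose from 95.5, 99.9, 128 and 106 to 138, 129, 161, 168 and 142, by 0.45 (SE 0.12, limma adjusted p = 0.0250). Rpl17, Rps19 and Rps2 rose by 0.44, 0.43 and 0.43. Rps19 is known as the gene most often mutated in Diamond-Blackfan anemia, and Rps2 lies near the entry of the messenger RNA channel. The other members called higher, with smaller changes, were Rpl12, Rpl13, Rpl34, Rpl41, Rps10, Rps12, Rps14 and Rps15a.

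The number of liver calls depended on single libraries. Leaving out X18L18 left no member higher, and leaving out X18L19 left 1. Without X5L4299, X5L5001 or X5L5239 the numbers were 1, 0 and 2, and without each of the other livers they ran from 10 to 17. Over all genes the number higher ran from 463 without X18L18 to 1821 without X18L16, against 1269 with all libraries. Rps15 kept its call in 7 of the 9 fits, all but those without X18L18 or X5L5001. The median change of the members stayed between 0.18 and 0.27 in all 9. The quasi-likelihood test of edgeR called 10 members higher on the recovered reads and DESeq2 called 26. Over all 12654 genes they called 1311 and 1849 higher.

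In adipose tissue, 1 member was higher at 20 months and none was lower. This was below the background, since 9.75% of all genes tested there were higher and 9.35% lower. The single gene was Rps15a, which lies on the body of the small subunit. Its values were 81.9, 72.0, 91.4 and 126 at 5 months and 140, 130, 201, 130 and 136 at 20 months, so that every old mouse exceeded every young one, with a change of 0.67 (SE 0.19, limma adjusted p = 0.0379). The call was lost in 7 of the 9 fits that left out a mouse, all but those without X18F36 or X5F5239. The direction was shared far more widely than the calls, as 77 of 80 members lay above 0 and the median was 0.37 against 0.01 for all genes. The members moved together between libraries, so this number does not count separate observations of an age change. Old and young mice were fully separated for 2 members, against 8.30% of all genes.

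X5F5239 decided the adipose tissue result. Without it 40 members were higher and the median was 0.52, whereas leaving out X18F36 left 1 and leaving out any other mouse left 0. Over all genes 1365 were higher with all libraries, 1907 without X5F5239 and 1925 without X18F36. In the remaining fits 207 to 1361 were higher. DESeq2 called 19 members higher and edgeR 1. Over all 14005 genes they called 2208 and 1432 higher.

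In skeletal muscle, 10 members were higher at 20 months and none was lower, of 81. Over all genes tested in muscle 9.13% were higher and 10.1% lower. The median change of the members was 0.29 against 0.02 for all genes, with 75 members above 0. Only 2 members separated the ages completely, against 8.63% of all genes, and the young library X5S5238 was the highest of its group for nearly all members. Without this library 61 members were higher and the median was 0.45. Over all genes 2024 were higher in that fit, against 1161 with all libraries and 507 to 936 without any other mouse. Leaving out any other mouse left 1 to 5 higher, and each of those 8 mice therefore moved the count by more than 1.5 times.

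Rps25, a small-subunit protein used by some viral internal ribosome entry sites, had muscle values of 125, 132, 215 and 147 at 5 months and 272, 223, 226, 231 and 239 at 20 months. The ages did not overlap, the change was 0.65 (SE 0.14, limma adjusted p = 0.0132), and the call was made in all 9 fits that left out a mouse. Rps15a was the other stable call, with 71.4, 82.2, 125 and 86.2 at 5 months and 158, 129, 128, 125 and 127 at 20 months. It rose by 0.57 (SE 0.15, limma adjusted p = 0.0220) and was called in 8 of the 9 fits, the exception being that without X5S4299. Rpl35 rose by 0.74 (SE 0.21), Rpl28 by 0.66 (SE 0.20) and Rpl15 by 0.50 (SE 0.16), with X5S5238 above some of the old mice for each of them, and these were called in 3, 1 and 1 of the 9 fits, in each case including that without X5S5238. The remaining calls were Rpl12, Rpl21, Rpl29, Rps27l and Rps3a1. Rps15a was thus called higher in all 3 tissues, and the 5-month libraries of the tissues came from the same mice.

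**Figure D3:**
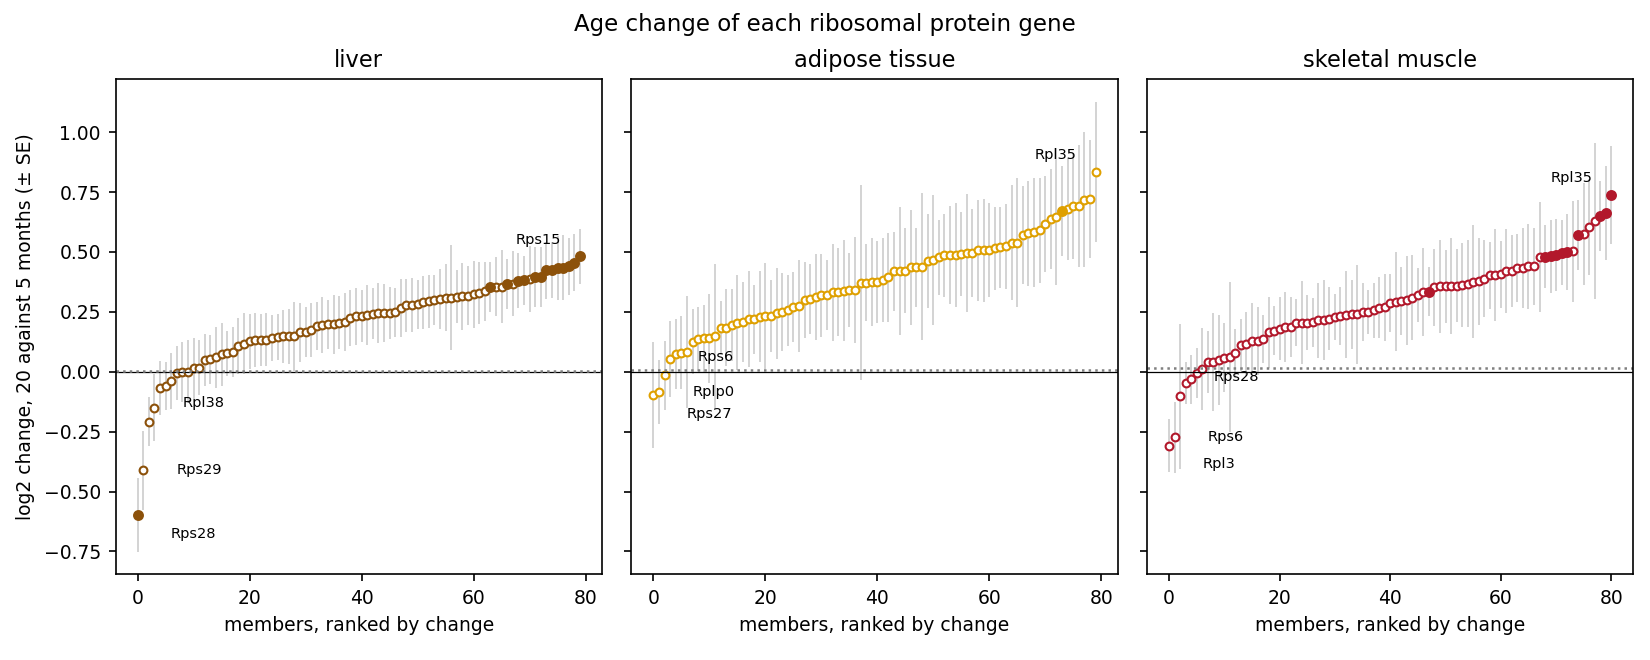
Log2 change from 5 to 20 months of each member tested, ranked within each tissue, with bars of 1 SE. Filled points passed the limma test at an adjusted p of 0.05 and the dotted line is the median of all genes tested. Most points lie above 0 in each tissue, and Rps28, Rps29 and Rpl38 form the low end in liver.

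The level of the family moved with a trend over all other genes. In each library the log2 levels of the genes outside the family, relative to their tissue mean, were set against transcript length, giving a slope per doubling of length. In liver the slopes were 0.0975, 0.159, 0.00795 and 0.0439 at 5 months and -0.0310, -0.0566, -0.133, -0.0946 and 0.00629 at 20 months. Shorter transcripts were thus relatively more abundant in the old livers. In adipose tissue the slopes ran from -0.0400 to 0.168 at 5 months and from -0.190 to 0.000499 at 20 months, the lowest in each group being those of X5F5239 and X18F38. In muscle X5S5238 had a slope of -0.117, where the other young mice lay between 0.0490 and 0.112 and the old ones between -0.0555 and -0.00872. The libraries with the highest family level in their group of adipose tissue and young muscle were therefore those with the lowest slope.

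When a smooth trend on GC content and transcript length was taken out of each library, 1 member was higher and 3 were lower at 20 months in liver, with a median of 0.01. In adipose tissue 6 were higher and the median was 0.14, and in muscle 13 were higher, 1 was lower and the median was 0.17. Within the family the correlation with length was as follows. Over 80 members in liver, Pearson's r between the age change and log2 length was 0.177 and Spearman's rho 0.039, whereas r over all genes was -0.255. For adipose tissue and muscle r over the members was -0.0416 and -0.00961. These correlations describe genes measured in the same libraries, many of which share reads with pseudogenes. They and the fits with the trend removed rest on the length of 1 transcript of each gene. The lengths used for Rps15a (5179 bases) and Rps20 (3706 bases) were the longest of the family and may be too long. The correlations and fits were not repeated without these genes. What set the length trend was not tested.

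**Figure D4:**
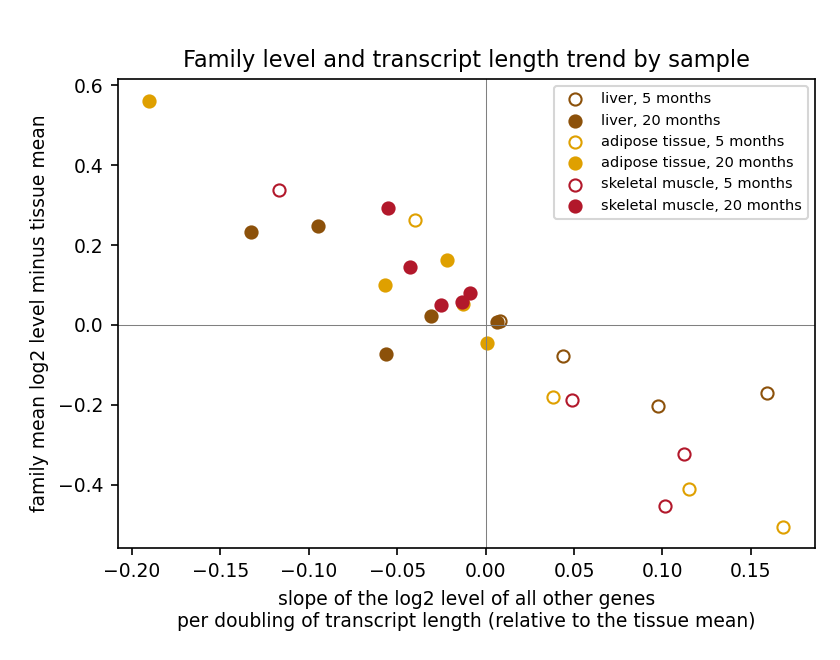
Each point is a library. The vertical axis is the family's mean log2 level minus its tissue mean, and the horizontal axis is the change in the log2 level of all other genes per doubling of transcript length, relative to the tissue mean. Libraries with a lower slope have a higher family level, from X18F38 at the upper left (slope -0.190) to X5F5001 at the lower right (0.168).

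A few genes went against the family. To show these, the mean log2 level of the family was subtracted from every gene in each library before the test, so that a change is relative to the average ribosomal protein gene. In liver 3 members fell relative to the family, Rps28, Rps29 and Rpl38, where 18.4% of all genes were lower on this scale. All 3 encode small proteins, and Rps28 and Rps29 belong to the head of the small subunit, while Rpl38 is a large-subunit protein known from its role in translating Hox messenger RNAs in the embryo.

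Rps28 (chr17:33823036-33824562) had liver values of 77.1, 63.9, 106 and 99.7 at 5 months and 56.8, 52.6, 60.2, 63.8 and 47.6 at 20 months. The lowest young liver lay just above the highest old one. It was the only member that fell in liver as deposited, by 0.60 on the log2 scale (SE 0.15, limma adjusted p = 0.0246), a call that was lost without X18L17, X18L18, X5L5238 or X5L5239. Relative to the family it fell by 0.80 (SE 0.14, limma adjusted p = 0.00748). Rps29 (chr12:69157722-69159186) was 81.7, 70.5, 110 and 132 in young livers and 64.7, 68.6, 80.7, 73.2 and 72.1 in old ones. Its groups overlapped, and it fell relative to the family by 0.61 (SE 0.15, limma adjusted p = 0.0189). Both calls relative to the family were made in all 9 fits that left out a liver. Rpl38 (chr11:114667818-114672333) fell relative to the family by 0.41 (SE 0.11, limma adjusted p = 0.0234) and was not called without X18L18, X18L19, X5L4299 or X5L5239, with values of 75.4, 66.8, 78.6 and 86.1 against 63.7, 62.3, 73.1, 69.6 and 62.1.

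These genes have short transcripts, of 392 bases for Rps28, 390 for Rps29 and 371 for Rpl38, and other short members had the values given here. As deposited, Rps27 (345 bases) differed by -0.15 in liver, Rps21 (394 bases) by -0.04 and Rpl36 (383 bases) by 0.15, none of them called. Relative to the family these changes were -0.35, -0.24 and -0.05, also not called (limma adjusted p = 0.106, 0.116 and 0.778). Rpl41, which encodes a peptide of only a few residues and has a transcript of 437 bases, rose by 0.40 in liver as deposited. Relative to the family its change was 0.20 (limma adjusted p = 0.192). The count of 3 lower members was the same after the trend on GC content and length was removed. In the other tissues Rps28 and Rps29 spread widely within groups. Rps29 was 51.0, 31.4, 72.8 and 159 in young adipose tissue and 34.8, 44.0, 145 and 68.2 in young muscle, where X5F5239 and X5S5238 stood far above the rest. The age changes of Rps28, Rps29 and Rpl38 did not pass the test of a difference between liver and adipose tissue (limma adjusted p = 0.219, 0.280 and 0.190) or between liver and muscle (0.441, 0.549 and 0.325), so a difference between tissues was not shown.

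In muscle 1 member fell relative to the family, where 10.5% of all genes were lower. This was Rpl3, a large-subunit protein that reaches toward the peptidyl transferase center. Its values were 86.0, 96.7, 94.3 and 99.9 at 5 months and 89.6, 79.1, 61.6, 79.7 and 71.8 at 20 months, with 1 old mouse among the young ones. Relative to the family it fell by 0.59 (SE 0.17, limma adjusted p = 0.0423), and as deposited it differed by -0.31 (SE 0.11, limma adjusted p = 0.0666). The call was made in 1 of 9 fits that left out a mouse, the one without X5S5238, in which 15 members departed from the family. In adipose tissue no member departed from the family by this limma test, with 1 higher and 1 lower at an unadjusted p under 0.05, but without X5F5239 the number called was 8.

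Between tissues, most of the family lay within a narrow range and a few paralogs carried the large differences. At 5 months 36 of 81 members were higher and 2 lower in liver than in adipose tissue, where 36.5% of all genes were higher and 39.9% lower. Rpl3l was 1 of these 2 lower members. It passed the filter of this fit through its muscle values and lay near 0 in both tissues, so nothing is read from that call. Against muscle, 47 members were higher and 2 lower in liver (36% and 36.8% of all genes). Between adipose tissue and muscle 17 members were higher and 8 lower in adipose tissue (41.9% and 30.9% of all genes). The median member differed by 0.34, 0.39 and 0.07 in these comparisons. These counts turned with the scaling. Rescaled to the sum without the 20 most abundant genes, 2 members were higher and 66 lower in liver than in adipose tissue, with the median over all genes itself shifted to -0.86, and 75 members were higher in adipose tissue than in muscle. No general order of the tissues was therefore drawn from them.

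At 20 months the counts were 17 higher and 4 lower in liver than in adipose tissue (35.7% and 38.8% of all genes), 43 higher and 4 lower in liver than in muscle (39.2% and 38.1%), and 28 higher and 7 lower in adipose tissue than in muscle (42.1% and 33.9%). The labels name an RNeasy kit for liver and an RNeasy Lipid Tissue kit for the other tissues, whereas the study's methods name the same RNeasy kit for all samples. If the labels hold, the kit and the tissue cannot be told apart in comparisons with liver. In bulk tissue, fewer cells of a type and less RNA per cell cannot be told apart either.

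Rpl3l (chr17:24727826-24736143) was the member most restricted to 1 tissue. In muscle its values were 355, 381, 573 and 441 at 5 months and 516, 431, 517, 471 and 505 at 20 months, from 4617 to 7910 reads in each library. In young livers it had at most 1 read, and in old livers 2 to 12. In adipose tissue it had 1 to 65 reads at 5 months and 3 to 21 at 20 months, with values of at most 1.89. The difference between liver and muscle at 5 months was -8.73 (SE 0.23) and that between adipose tissue and muscle -7.78 (SE 0.23) on the log2(value + 1) scale, which understates it for values this near 0. Acta1, the actin of skeletal muscle fibers, was 71.8 to 428 in the adipose tissue libraries and 0 in all livers, and the part of muscle fibers in the adipose tissue values of Rpl3l was not tested.

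Its partner Rpl3 (chr15:80077781-80083406) showed the opposite order. Rpl3 was 210, 257, 319 and 316 in young livers, 286, 348, 285 and 372 in young adipose tissue and 86.0 to 99.9 in young muscle. No muscle library reached those of the other tissues, and the difference at 5 months was 1.52 (SE 0.15, limma adjusted p = 8.23e-10) between liver and muscle and 1.76 (SE 0.15, limma adjusted p = 9.06e-11) between adipose tissue and muscle. Relative to the family these differences were 1.18 and 1.74. Per kilobase of transcript, Rpl3l made up 85.5% ± 2.27 (SD, n = 4) of the sum of Rpl3l and Rpl3 in young muscle and 89.3% ± 1.62 (SD, n = 5) in old muscle. Without the correction for length, based on one transcript of each gene, these shares were 81.9% and 86.4%. In liver and adipose tissue the group means of the share were all under 0.45%. Rpl3l itself did not pass the age test in muscle, at 0.18 (SE 0.13, limma adjusted p = 0.342), and Rpl3 shares 85.56% of its 50-base stretches with other transcripts.

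Rps27l and Rpl7l1 were the members most enriched in liver. Rps27l (chr9:66944624-66949522) was 120, 104, 166 and 147 in young livers, 24.7, 20.2, 29.3 and 43.9 in young adipose tissue and 30.4, 36.8, 57.1 and 38.5 in young muscle. Each liver exceeded each sample of the other tissues, by 2.18 against adipose tissue (SE 0.19, limma adjusted p = 1.12e-10) and 1.71 against muscle (SE 0.19, limma adjusted p = 8.73e-09). Rpl7l1 (chr17:46773907-46782656), which is related to Rpl7 and acts in the assembly of the large subunit, was 83.9, 78.7, 85.8 and 80.4 in young livers. It ranged from 27.04 to 35.8 in young adipose tissue and from 27.3 to 33.9 in young muscle, differences of 1.31 and 1.37 (SE 0.11 for each). Relative to the family, Rps27l was higher in liver by 1.86 and 1.37 and Rpl7l1 by 0.99 and 1.02. For these genes the direction was the same under every scaling tried, in contrast to that of Rps2 and Rpl4.

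**Figure D5:**
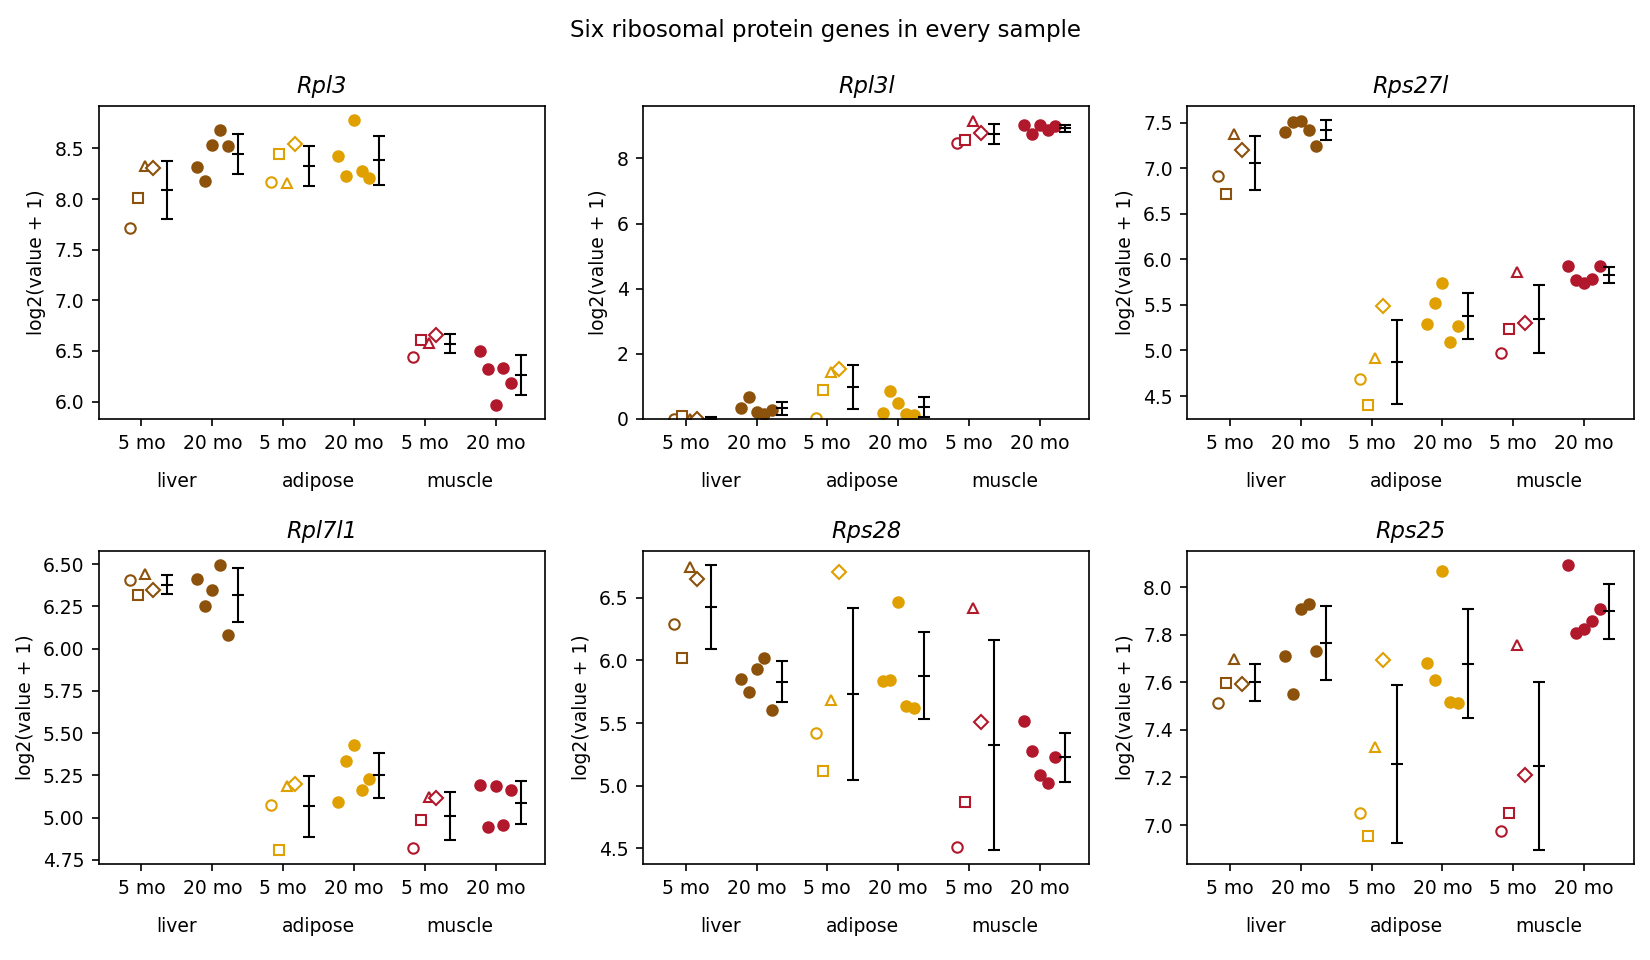
Levels of 6 members on the log2(value + 1) scale in every library, open for 5 months and filled for 20 months, with the mean and SD of each group beside the points. The axes differ between panels and do not start at 0 except for Rpl3l. Rpl3l is high in muscle where Rpl3 is low, Rps27l and Rpl7l1 are high in liver, and Rps28 is lower in old than in young livers while Rps25 is higher in old than in young muscle.

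As a share of the pair per kilobase, Rps27l made up 35.1% ± 8.25 (SD, n = 4) of Rps27l and Rps27 in young livers and 43.3% ± 2.79 (SD, n = 5) in old ones. It made up 10.3% and 14.5% in adipose tissue and 15.9% and 20.5% in muscle at the 2 ages. Without the correction for length these shares were 43.7% and 52.5% in liver, 14.1% and 19.7% in adipose tissue and 21.4% and 27.1% in muscle. Rps27l rose with age in muscle by 0.49 (SE 0.15, limma adjusted p = 0.0419), with values of 59.9, 53.7, 52.5, 54.3 and 59.9 in old mice, 2 of the old mice lying above all 4 young ones. In liver and adipose tissue its changes of 0.37 and 0.51 did not pass the test (limma adjusted p = 0.0771 and 0.1099). Rpl7l1 kept the same level at both ages within the spread. Its share of the pair with Rpl7 per kilobase was 9.51% and 8.54% in liver, 5.02% and 5.19% in adipose tissue and 4.99% and 4.46% in muscle. Without the correction for length it was 19.1% and 17.3%, 10.6% and 10.9%, and 10.5% and 9.46%.

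The remaining paralogs ranged from common to nearly absent. Per kilobase, Rpl22l1 made up 31.8% and 33.2% of the pair with Rpl22 in liver at 5 and 20 months. The shares were 37.7% and 46.6% in adipose tissue and 39.3% and 46.3% in muscle. These shares rest on transcripts of 525 bases for Rpl22l1 and 2051 bases for Rpl22. Without the correction for length they were 10.7% and 11.4% in liver, 13.6% and 18.3% in adipose tissue and 14.6% and 18.1% in muscle. The age changes of Rpl22l1, 0.31, 0.72 and 0.63, did not pass the test (limma adjusted p = 0.326, 0.0913 and 0.178). In young muscle it was 9.76, 10.6, 36.2 and 24.2, so X5S5238 and X5S5239 lay within the old range of 21.8 to 37.3. Rpl10l had 5 reads in all, in X5L5238 and X5F5239. Rpl39l had no read in any liver and at most 38 in an adipose tissue library. A count of 0 in a library allows up to 3 reads, so expression of these genes below that level was not detectable at this depth.

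Other members differed between tissues as well. Rplp0, the base of the stalk that recruits elongation factors, was lower in liver than in muscle by 0.56 (SE 0.11, limma adjusted p = 4.77e-05), with 513, 560, 560 and 497 in young livers and 687, 863, 907 and 700 in young muscle. It was the only stalk protein named by this comparison, and the age changes of Rplp0, Rplp1 and Rplp2 did not pass the test in any tissue. Rps12 was lower in liver than in adipose tissue by 0.38 (SE 0.15, limma adjusted p = 0.0201), a call lost without X5F5238, X5F5239 or X5L5239. Rpl41 and Rps6 were higher in adipose tissue than in muscle by 0.80 (SE 0.25) and 0.70 (SE 0.15). They share 53.09% and 84.56% of their 50-base stretches with other transcripts, and Rps6 was listed at low values for a member. How reads were divided among these transcripts is not known, so a difference of Rps6 itself was not shown, and that of Rpl41 is uncertain too. Rps2 was higher in liver than in adipose tissue by 0.86 (SE 0.13), and Rps2 and Rpl4 were lower in adipose tissue than in muscle by 0.52 and 0.51, but these 3 differences changed sign when values were rescaled without the most abundant genes or quantile normalized. Relative to the family, the differences of Rps2 were 0.54 and -0.54 and that of Rpl4 was -0.53.

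Whether a gene changed with age to a different extent in different tissues was tested across all 27 libraries. Rpl3 was the only member called between liver and muscle, where 17.5% of all genes were called. Its age changes in these tissues differed by 0.66 (SE 0.20, limma adjusted p = 0.0231). Neither change passed the age test on its own, at 0.36 in liver (SE 0.15, limma adjusted p = 0.117) and -0.31 in muscle (SE 0.11, limma adjusted p = 0.0666). Rpl3 shares 85.56% of its 50-base stretches with other transcripts. Its old livers were at 318, 288, 370, 409 and 368, all but X18L16 and X18L17 above the young ones, and it was called in 26 of 27 fits that left out a library, all but that without X5L4299 (limma adjusted p = 0.0598). The 1 member called between liver and adipose tissue, where 15.6% of all genes were called, was Rpl3l. It passed the filter of this fit through its muscle values alone and lay near 0 in both tissues compared, so nothing is read from this call. No member was called between adipose tissue and muscle, where 14.7% of all genes were called in either direction. This limma test gave 1 member at an unadjusted p under 0.05, and 1 was called when X18F37, X5F4299 or X5S5238 was left out.

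Genes that make, use or regulate ribosomes were described beside the family. Among 51 genes for ribosome biogenesis, most of them nucleolar proteins and subunits of RNA polymerase I, 18 fell in liver, 15 in adipose tissue and 7 in muscle, and 1 rose in muscle. The genes that fell made up 35.3%, 29.4% and 13.7% of the list, where 9.79%, 9.35% and 10.1% of all genes tested were lower, so the muscle share was near that of all genes. Their median changes were -0.36, -0.24 and -0.11. Rrp12, an export factor of pre-ribosomes, fell by 1.02 in liver (SE 0.21, limma adjusted p = 0.0127), the helicase Ddx21 fell by 0.76 in both liver and adipose tissue, and the GTPase Gnl2 fell by 0.90 in adipose tissue (SE 0.15, limma adjusted p = 0.0114). Wdr12 was the gene that rose in muscle, by 0.36 (SE 0.098). Of 35 initiation factors, 9 fell in liver, 7 in adipose tissue and 2 in muscle, where 4 rose. These are 25.7%, 20% and 5.71% lower and 11.4% higher, and 9.13% of all genes were higher in muscle. Eif3a, the scaffold of the eIF3 complex, fell by 0.69 in liver (SE 0.11, limma adjusted p = 0.00775).

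Elongation factors and other genes with TOP tracts mostly did not pass the test. The kinase Eef2k fell by 0.66 in liver and rose by 0.55 in muscle, where Eef1e1 rose too, and no other elongation factor was called. Of 16 other genes with TOP transcripts, 1 fell in liver (Nap1l1), 1 in adipose tissue (Eif4b) and 2 in muscle (Pabpc1 and Naca), where Eif3h and Eif3e rose. These are 6.25%, 6.25% and 12.5% lower, and 12.5% higher in muscle. Of all genes 9.79%, 9.35% and 10.1% were lower, and 9.13% were higher in muscle. The medians of the 16 genes were -0.07, 0.04 and 0.17. Of 26 genes of mTORC1 and its regulators, 2 rose and 4 fell in liver, 2 rose and 5 fell in adipose tissue, and 4 rose and 4 fell in muscle, that is 7.69%, 7.69% and 15.4% higher and 15.4%, 19.2% and 15.4% lower. Of all genes 10%, 9.75% and 9.13% were higher and 9.79%, 9.35% and 10.1% lower. The eIF4E-binding protein Eif4ebp3 fell by 2.41 in liver (SE 0.26, limma adjusted p = 0.00253) and fell by 2.95 in adipose tissue (SE 0.34, limma adjusted p = 0.00502). In muscle Ddit4 fell by 3.05 and Sesn1 by 1.73, both inhibitors of mTORC1, while Ddit4l, another inhibitor, rose by 0.72 and Rragd, an activator, by 0.57. Ddit4l also rose in liver. The length trend above runs through these genes as well, and its part in their changes was not tested.

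The cell type markers called with age differed between tissues, and their part in the ribosomal protein levels was not tested. Of all genes in liver, adipose tissue and muscle, 10%, 9.75% and 9.13% were higher and 9.79%, 9.35% and 10.1% lower. Beside these shares nothing is read from entries of 1 or 2 genes. In liver 5 of 7 B cell markers tested were higher at 20 months (summed values 2.69 to 11.3 against 12.4 to 23.8), as were 2 of 3 for T and NK cells, 3 of 10 for macrophages, 4 of 6 for fibroblasts, 4 of 5 erythroid genes, 1 of 3 for plasma cells, 1 of 6 mesothelial genes, 2 of 5 for adipocytes and the 1 pancreatic acinar gene tested, while 2 of 10 hepatocyte markers, 1 of 6 endothelial genes, 1 adipocyte gene and the 1 gene of slow fibers were lower. In adipose tissue 7 of 8 B cell markers were higher (summed values 7.39 to 28.3 against 21.9 to 227), with 2 of 4 for plasma cells, 3 of 8 for T and NK cells, 2 of 10 for macrophages, 1 of 3 for neutrophils and the 1 acinar gene. Lower there were 4 of 6 mesothelial, 3 of 6 endothelial, 2 of 5 erythroid, 2 of 10 adipocyte, 1 of 7 fibroblast, 1 of 2 slow-fiber, 1 of 8 hepatocyte and 1 of 10 macrophage genes. In muscle no marker tested was higher, and 6 of 10 macrophage (summed values 170 to 290 against 97.3 to 181), 6 of 7 fibroblast, 3 of 6 erythroid, 1 of 6 endothelial, 1 of 10 adipocyte and 1 of 8 hepatocyte genes were lower. The lists not named for a tissue had no gene called or none tested there. The defining markers matched the tissue labels, with Alb at 26970 to 125324 in liver, Adipoq at 532 to 1182 in adipose tissue and Acta1 at 25482 to 34371 in muscle. Mlx was listed at 7.04 to 32.4 in all 27 libraries, which does not check the deletion, since reads from the part of the gene that is kept are counted too and wild-type mice were not analysed here.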

How the data were processed

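Poly-A RNA of 27 samples was sequenced from libraries made with a strand-specific kit (NEBNext Ultra Directional). The authors analysed the reads with CLC Genomics Workbench and deposited 1 table of CPM. The labels name GRCm38.p6 and mm10, while the strand setting and the annotation behind this table are not given in the sources used here. The deposited values sum to between 559419 and 1395315 per library, so they are a scaled signal, the CPM divided by a factor for each library. Every value was a whole multiple, within 0.1 read, of what 1 read was worth (100% of values), and the recovered reads were used for the count tests. No replicate pair was identical, and the replicates of a tissue carry different mouse numbers.

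Genes that reached a value of 1 in 4 or more samples of a fit were tested on log2(value + 1) with limma 3.58.1 (R 4.3.3, intensity trend, Benjamini-Hochberg over all genes tested, adjusted p under 0.05), on the 9 samples of a tissue for age and on all 27 for tissue and for the difference of age changes. All p-values are two-sided. The fold changes are on the log2(value + 1) scale. The edgeR 4.0.16 quasi-likelihood test and DESeq2 1.42.0 were run on the recovered reads. Other alternatives were a pseudocount of 0.1, no filter, quantile normalization, median-of-ratios factors, leaving the 20 most abundant genes out of the scaling, removal of a trend on GC content and length of the transcript (natural splines with 4 degrees of freedom), a replicate block for the mouse, and each library left out in turn. The fits were tested on simulated data. Sequences and starts are from RefSeq (GRCm38.p6), with transcript lengths from GENCODE vM21 (the median one of each gene).

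Members named were the paralogs with their partners and the stalk proteins, and by test up to 5 each way per tissue for age, up to 3 each way for the departure from the family (mean value at least 5) and for each pair of tissues at 5 months, and up to 3 per pair of tissues for the difference of age changes. Pathway genes were named up to 2 each way. The values of 1 member are not reported here. The members, the lists and these rules were chosen with earlier results of these data known. The 5-month mice gave all 3 tissues. The deviations of 12 pairs of libraries from the same mouse correlated between -0.0169 and 0.294 (mean 0.136), and the block had a consensus correlation of 0.101.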

Additional observations from a re-analysis of the deposited data

Results flagged for a closer look

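In a test for a single high or low library (Dixon's criterion, which chance meets in about 1 of 20 groups), 21 of 204 groups of 4 or 5 libraries were marked, most of them in a few libraries. In adipose tissue at 20 months X18F38 stood apart for Rpl37a (255), Rpl38 (120), Rpl39 (170.0), Rplp1 (469), Rps15a (201), Rps25 (267), Rps27 (284), Rps28 (87.6), Rps29 (139) and Rps3 (419). In adipose tissue at 5 months X5F5239 stood apart for the share of reads on the family (3.04%) and for Rpl22 (133), Rpl22l1 (28.5) and Rps3 (315). In muscle X5S5238 stood apart for Rpl39 (93.0) at 5 months and X18S56 for Rpl17 (257), Rps12 (214) and Rps15a (158) at 20 months. In liver X5L5001 stood apart for Rps27 (233) and for Rpl3l (0.0727, from 1 read) at 5 months, and X18L17 for Rpl3l (0.601) at 20 months. All but the value of X5L5001 for Rpl3l rest on more than 3 reads.

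By a test of the difference itself, the age change of Rpl3 differed by 0.66 on the log2 scale between liver and muscle. That of Rpl3l differed by 0.91 between liver and adipose tissue, but Rpl3l passed the filter of this fit through muscle alone and lay near 0 in both tissues compared, so nothing is read from it.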

How the results depend on the processing

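Every count of members called higher with age moved by more than 1.5 times under some alternative. In liver 26 were higher with DESeq2, 7 with no filter, 34 with quantile normalization, 56 without the 20 most abundant genes (median 0.41, where the median of all genes was 0.16) and 1 with the length and GC trend removed (median 0.0089), and lower were 0 and 3 in the last pair of fits. In adipose tissue 19 were higher with DESeq2, 6 with the trend removed, 3 with median-of-ratios factors or quantile normalization, 2 without the most abundant genes and 0 with no filter, and 2 and 1 departed from the family with the trend removed and with no filter. In muscle 2 were higher with no filter, 24 with quantile normalization and 27 without the most abundant genes, 1 was lower with DESeq2 or the trend removed, and 10 departed from the family with the trend removed. The causes were not tested.

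For the tissue differences, the values with the trend removed, with quantile normalization and without the most abundant genes follow in that order. At 5 months members higher in liver than in adipose tissue were 8, 2 and 2 and lower 26, 49 and 66, higher in liver than in muscle 26, 27 and 22 and lower 15, 4 and 7, and higher in adipose tissue than in muscle 37, 66 and 75 (11 with median-of-ratios factors), with 1 lower under each of the last pair. At 20 months they were 5, 2 and 3 higher and 49, 64 and 73 lower in liver than in adipose tissue, 15, 25 and 26 higher in liver than in muscle with 26 lower with the trend removed, 9 lower without the most abundant genes and 2 lower with no filter, and 75 and 71 higher and 1 lower in adipose tissue than in muscle under the last pair, with 11 lower with the trend removed. Members whose age change differed were 1 between adipose tissue and muscle with the trend removed or without the most abundant genes, 3, 0 and 2 between liver and adipose tissue (0 with no filter), and 7 between liver and muscle with the trend removed. Rps2 reversed between adipose tissue and muscle (0.55 with quantile normalization, 0.20 without the most abundant genes) and between liver and adipose tissue (-0.51 and -0.13), as did Rpl4 between adipose tissue and muscle (0.63 and 0.21). The shares without the most abundant genes were 1.69% and 2.23% in liver and 1.66% and 2.06% in muscle.

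Leaving out 1 library gave 0 to 17 members higher and 0 to 1 lower in liver, 0 to 40 higher in adipose tissue with 0 to 8 departing from the family, and 1 to 61 higher and 0 to 1 lower in muscle with 0 to 15 departing. At 5 months it gave 15 to 54 higher and 1 to 2 lower in liver than in adipose tissue, the lowest count without X5F4299, and 7 to 26 higher and 5 to 12 lower in adipose tissue than in muscle, the highest without X5S5238. At 20 months it gave 10 to 29 higher and 1 to 5 lower in liver than in adipose tissue, the highest without X18F38, 2 to 4 lower in liver than in muscle and 15 to 30 higher in adipose tissue than in muscle, the lowest without X18F38. The members whose age change differed numbered 0 to 1, 0 to 1 and 0 to 2. With the replicate block for the mouse, the 5-month counts were 43 higher and 2 lower in liver than in adipose tissue, 50 and 3 in liver than in muscle and 18 and 8 in adipose tissue than in muscle, and the differences of age change stayed at 1, 1 and 0, so the pairing changed no other call. For single genes, 34 results kept their direction and side of the threshold in 765 refits, lost the call in 113 and reversed in 6. Depth limits Rpl10l, Rpl39l and, outside muscle, Rpl3l, which rest on few reads.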
